A study of Mus musculus with 172 samples.

Results

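The 6 genes of the Fos and Jun families described here, Fos, Fosb, Fosl2, Jun, Junb and Jund, encode subunits of the transcription factor AP-1. They were chosen by name and not by a measured value. All 6 were listed in both tissues, among 14896 genes in cortex and 14107 in liver. RNA-seq was performed on cerebral cortex and liver of adult male mice that were sleep deprived (SD) for 6 h from light onset, or left undisturbed (Ctr), and killed at zeitgeber time (ZT) 6, immediately after the deprivation. Each combination of tissue and condition held 39 pools, namely 1 pool for each of 33 BXD/RwwJ lines, which are inbred lines derived from a cross between C57BL/6J and DBA/2J mice, 4 pools of these parental strains, and 1 pool for each reciprocal F1 cross (C57/BL/J x DBA/2J and DBA/2J x C57/BL/J). Each parental strain was sampled at the start and at the end of the collection phase, which gave a repeated pool per strain. The labels of BXD103, BXD96 and BXD97 also name them after BXD73, BXD48 and BXD65, which have pools of their own. The tests treated all of these pools as separate lines. A pool held equal amounts of RNA from mice of 1 line and condition, with fewer mice for BXD79, BXD85 and BXD101. A further 4 BXD/TyJ lines, with 16 libraries in all, were described apart and entered none of the main tests. SD was done by gentle handling, while Ctr mice stayed in another room, so that sleep loss, handling and room cannot be told apart. Ctr and SD pools of a line were made of different mice. A p-value here therefore measures the spread between pools. In bulk tissue, fewer cells of a type and less RNA per cell cannot be told apart.

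AP-1 is a dimer. Proteins of the Fos family cannot pair with each other and bind DNA together with a Jun protein, whereas Jun proteins can also pair among themselves. Fos, Fosb and Junb are classic immediate early genes, transcribed within minutes of synaptic activity or growth factor stimulation through calcium and mitogen-activated protein kinase signaling, and Fos is widely used to mark recently active neurons. Fosl2 (Fra-2) is generally slower and longer lived, Jun is a target of the stress-activated JNK kinases with known roles in liver regeneration, and Jund is expressed broadly in resting cells.

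The sequences before the start sites of Fos, Fosb and Jun are shown because Fos and Fosb gave the largest changes of the 6 genes in cortex and Jun gave none there, and because binding sites of this kind are known from textbooks to drive immediate early transcription. Each line gives 300 bases of mm9, the build to which the reads were mapped, in the direction of the gene. The window of Fos (chr12:86814490-86814789, plus strand) and that of Fosb (chr7:19895445-19895744, minus strand) run from position -350 to -51 relative to the annotated start, and that of Jun (chr4:94718864-94719163, minus strand) from -250 to 50. Capitals mark matches, on either strand, to the CArG box (the binding site of serum response factor, with A and T bases between CC and GG), to TGACG (a core of the cAMP response element, read as CGTCA on the other strand), to TGANTCA (an AP-1 site) or to TGACATCA.
Fos: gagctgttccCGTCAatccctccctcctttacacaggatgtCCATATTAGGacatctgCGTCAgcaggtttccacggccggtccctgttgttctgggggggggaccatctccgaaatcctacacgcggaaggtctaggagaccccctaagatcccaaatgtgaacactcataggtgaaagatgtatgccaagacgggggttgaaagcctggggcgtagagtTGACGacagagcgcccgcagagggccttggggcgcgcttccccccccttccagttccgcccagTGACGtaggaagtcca
Fosb: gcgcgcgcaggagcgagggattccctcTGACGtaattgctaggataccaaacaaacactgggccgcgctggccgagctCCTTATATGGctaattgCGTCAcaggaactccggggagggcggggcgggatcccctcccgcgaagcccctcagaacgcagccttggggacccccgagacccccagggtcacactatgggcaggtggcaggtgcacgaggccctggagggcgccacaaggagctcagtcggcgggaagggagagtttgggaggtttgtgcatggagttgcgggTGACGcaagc
Jun: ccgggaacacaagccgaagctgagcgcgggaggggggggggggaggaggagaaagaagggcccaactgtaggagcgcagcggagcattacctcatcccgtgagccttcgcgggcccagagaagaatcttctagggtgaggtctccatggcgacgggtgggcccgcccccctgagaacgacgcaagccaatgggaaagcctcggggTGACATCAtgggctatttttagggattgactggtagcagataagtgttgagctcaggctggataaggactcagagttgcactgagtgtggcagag

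In windows from 500 bases before to 50 bases after the start, a CArG box was found in 2 of the 6 genes, Fos (CCATATTAGG, at -309 to -300) and Fosb (CCTTATATGG, at -272 to -263), and in 2.83% of 22370 windows of protein-coding genes. In both genes a TGACG on the opposite strand followed the box after 7 bases. A CArG box with a TGACG at this spacing, counted on either side and on either strand, occurred in 5 of the 22370 windows. These were the windows of Fos, Fosb, Egr1, Dusp5 and Sik3. The spacing was chosen after the Fos and Fosb matches were seen, and these matches are a description of letters and not of binding. TGACG alone was present in Fos, Fosb, Jun and Junb and in 30.9% of all windows. The full element TGACGTCA, which contains TGACG, was in 0 of the 6 windows and in 2.62% of all. TGANTCA was in the Fos window only among the 6, at -462 to -456, and in 13.0% of all windows. TGACATCA, a form of the AP-1 site known from the Jun promoter, was found in Jun at -45 to -38 and in 4.19% of all windows. No such match was found in the Fosl2 and Jund windows.

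Deposited values were log2 CPM, the logarithm of reads scaled to the size of the library, and the reads behind them could be recovered. Cortex libraries held between 18995492 and 28998853 reads and liver libraries between 4681101 and 8269401, so that low genes were measured less precisely in liver. The 5 neuron markers together reached 7758 to 8961 CPM in cortex Ctr libraries, where Alb, Apoa1, Cyp2e1 and Tat were not listed. In liver all 5 hepatocyte markers were listed, with 2255 to 3358 CPM in Ctr and 2273 to 3248 CPM in SD, whereas Snap25, Slc17a7 and Gad1 were not listed. Mean Ctr levels of the hepatocyte markers ran from 7.50 log2 CPM for Apoa1 to 10.19 for Cps1, with Alb at 9.08. The erythroid marker Alas2, at 7.95, lay above Apoa1. Whether such levels are usual for liver was not tested. Among the other marker lists in liver, 2 of 4 lymphocyte markers, 2 of 2 listed neutrophil markers and 2 of 2 listed oligodendrocyte markers fell with SD. A brain marker listed in liver does not show that brain cells were present. The lymphocyte markers that fell were Cd79a, by 1.82, and Cd79b, by 1.11, each in 38 of 39 pools (limma, adjusted p of 5.83e-13 and 1.14e-12). Ptprc, at the highest level of the 4, and Cd3e did not pass. Of the neuron markers 1 of 2 listed fell, Syt1, by 0.82 in 39 of 39 pools, and of 3 endothelial markers Pecam1 rose by 0.25 and Kdr fell by 0.16 (limma, adjusted p of 1.12e-18, 9.78e-05 and 0.0252), where 21.5% of all genes of the liver rose and 22.6% fell. None of 5 hepatocyte and 4 myeloid markers passed. The summed neutrophil markers ranged from 0.916 to 14.8 CPM in Ctr and from 0.250 to 14.9 CPM in SD, the lymphocyte markers from 18.1 to 70.8 CPM and from 15.8 to 71.5 CPM, and the oligodendrocyte markers from 2.38 to 8.96 CPM and from 2.5 to 7.60 CPM. In cortex 3 of 5 neuron markers fell, with sums of 7401 to 8288 CPM in SD. Pecam1 and Slc1a3 also rose there and Mog, Cx3cr1, Kdr and Cps1 fell, with changes from -0.51 for Cps1 to 0.17 for Pecam1, where 33.0% of all genes of the cortex rose and 35.4% fell. The part of these cell markers in the results below was not tested.

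The relative levels of the 6 transcripts were compared on a log2 scale of CPM per kilobase of exon, since exon lengths ranged from 1807 bases (Junb) to 5855 bases (Fosl2). In cortex of Ctr mice Jund was the most abundant, with a mean level per length of 5.09 ± 0.17 (s.d., n = 39), above Junb at 4.01 ± 0.32 and Jun at 3.93 ± 0.24. Junb and Jun could not be ordered, since Junb was higher in 20 of 39 pools. Fosl2 (2.41 ± 0.30) and Fos (2.39 ± 0.64) also lay together, with Fosl2 higher in 20 of 39 pools, and Fosb was lowest at 1.53 ± 0.36.

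After SD the order in cortex was different. Junb (5.22 ± 0.28) stood beside Jund (5.15 ± 0.20) and was higher in 24 of 39 pools. Fos, at 4.64 ± 0.36, was above Jun (3.87 ± 0.20) in 38 of 39 pools, whereas it was below Jun on average in Ctr. In liver the order was Jund, Junb, Jun, Fosl2, Fos and Fosb in both conditions, and every pair of neighbours other than Jund and Junb was ordered in the same way in all 39 pools. The mean level per length of Fosb in liver was -3.43 ± 0.88 in Ctr and -2.39 ± 0.70 in SD. Cortex and liver were normalized in separate tables and their RNA was isolated with different kits, so that levels are given side by side for the tissues and were not tested between them.

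**Figure D1:**
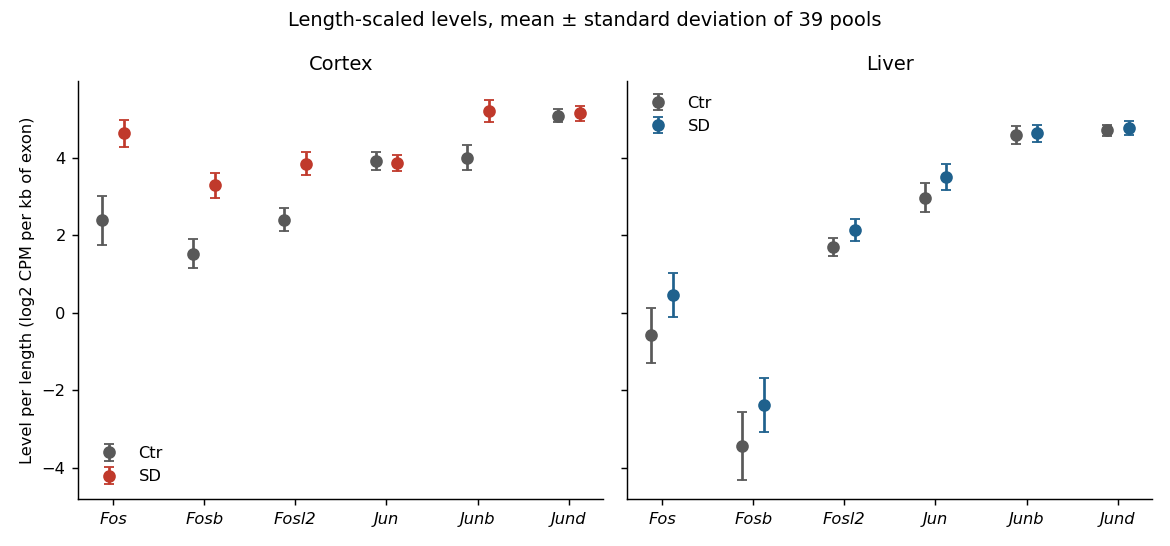
Mean levels per length (log2 CPM per kilobase of exon, points) and standard deviations (bars) of the 6 genes over 39 pools, for cortex and liver, in Ctr (gray) and SD (color). In cortex Fos, Fosb, Fosl2 and Junb stand higher in SD while Jun and Jund do not move visibly, and in liver Fosb lies far below the others in both conditions.

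Which AP-1 genes changed with SD in cortex was addressed by comparing 39 SD with 39 Ctr pools. All 3 genes of the Fos family rose, and of the Jun family Junb alone rose. The threshold throughout was a p of limma under 0.05 after Benjamini-Hochberg adjustment, made over every gene of the tissue. By this threshold 4 of 6 genes were higher and 0 were lower after SD, against 33.0% of all genes higher and 35.4% lower. The median log2 change of the 6 genes was 1.33, against -0.0097 for all genes.

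Fos, the immediate early gene that gives the family its name (chr12:86814840-86818223, plus strand), had a lowest, median and highest level of 2.41, 3.61 and 5.32 log2 CPM in Ctr and of 5.08, 5.89 and 6.63 in SD. The single Ctr pool inside the SD range was that of BXD89. The mean rose from 3.62 ± 0.64 to 5.87 ± 0.36, a log2 change of 2.25 ± 0.11 (SE) or 4.75-fold, higher in 39 of 39 pools (limma, adjusted p = 2.09e-30). This was the rise ranked 4 among all genes of the cortex. At least a doubling was seen in 37 pools, with a range of changes from 0.040 in BXD89 to 4.04 in BXD67. The median number of reads per library was 266 in Ctr and 1407 in SD.

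Fosb (chr7:19888070-19895394, minus strand) encodes a Fos-like subunit whose truncated form, not separated by these gene counts, is long known to accumulate with repeated stimulation. Its levels were 2.96, 3.39 and 4.70 log2 CPM (lowest, median, highest) in Ctr and 4.33, 5.24 and 5.86 in SD. The ranges overlapped through BXD56 and BXD89, whose Ctr pools were the highest. Fosb rose by a log2 change of 1.76 ± 0.077 (SE), or 3.39-fold, in 39 of 39 pools (limma, adjusted p = 9.78e-35), and ranked 12 among all rises.

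Fosl2 (chr5:32438845-32460204, plus strand) was the only gene of the 6 whose conditions did not overlap in cortex. Its levels were 4.32, 4.93 and 5.65 log2 CPM in Ctr and 5.84, 6.42 and 6.93 in SD, so that every SD pool was above every Ctr pool. The log2 change was 1.44 ± 0.065 (SE), or 2.72-fold, in 39 of 39 pools (limma, adjusted p = 1.24e-33).

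Among the Jun proteins, which supply the obligate partner of Fos proteins, Junb (chr8:87500811-87502617, minus strand) had levels of 4.15, 4.86 and 5.85 log2 CPM in Ctr and 5.48, 6.13 and 6.55 in SD. BXD89 was again the only Ctr pool inside the SD range. The log2 change of Junb was 1.21 ± 0.066 (SE), or 2.31-fold, higher in 39 of 39 pools (limma, adjusted p = 1.29e-28). Jun (chr4:94715725-94718913, minus strand) ranged from 5.11 to 6.46 log2 CPM in Ctr (median 5.63) and from 5.10 to 6.01 in SD (median 5.54), and the ranges overlapped almost completely. Its log2 change was -0.057 with a 95% confidence interval from -0.15 to 0.040 (limma, adjusted p = 0.296), and it was higher in 17 of 39 pools. Jund (chr8:73221638-73224515, plus strand), the broadly expressed member, ranged from 6.19 to 6.91 in Ctr (median 6.62) and from 6.08 to 6.94 in SD (median 6.68), with a log2 change of 0.060 and an interval from -0.022 to 0.14 (limma, adjusted p = 0.193). Jun, Junb and Jund are annotated with a single exon, so that their reads do not separate spliced from unspliced RNA.

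**Figure D2:**
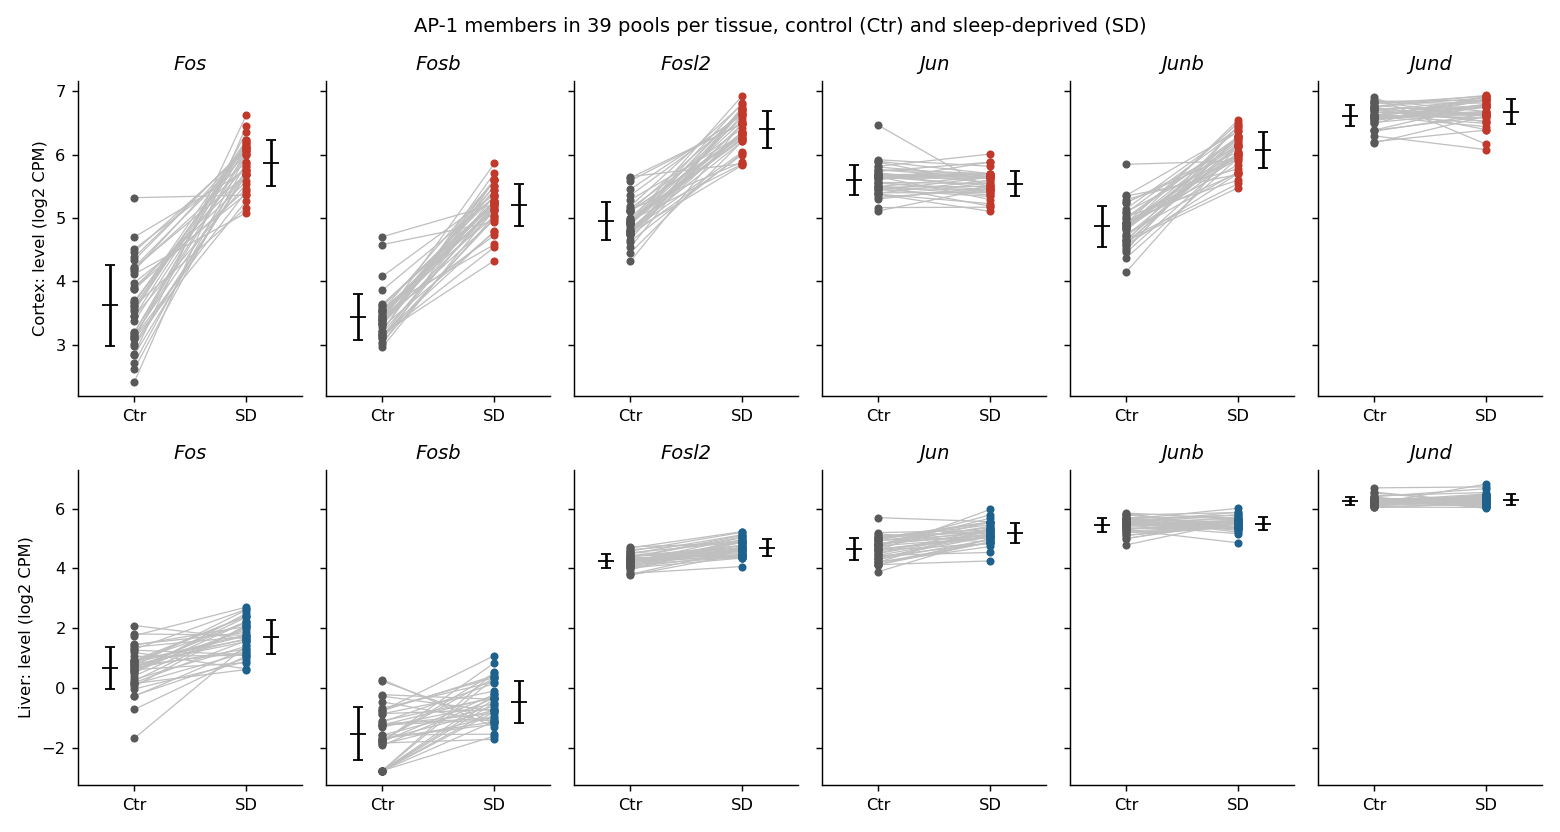
Levels (log2 CPM) of the 6 genes in Ctr (gray points) and SD (colored points), 39 pools each in cortex (upper panels) and liver (lower panels), with gray lines joining the pools of a line and black bars giving mean ± standard deviation. In cortex all 39 lines slope upward for Fos, Fosb, Fosl2 and Junb, with a nearly flat line for BXD89 in Fos and Junb, whereas Jun and Jund cross without a common direction.

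In liver 4 of the 6 genes rose as well, but they were not the same 4. Fos, Fosb, Fosl2 and Jun were higher after SD, 0 genes were lower, and Junb did not pass the test, against 21.5% of all genes of the liver higher and 22.6% lower. The median log2 change of the 6 genes was 0.48, against -0.0015 for all genes.

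Fos ranged from -1.68 to 2.09 log2 CPM in Ctr (median 0.75) and from 0.61 to 2.70 in SD (median 1.72), so that the conditions overlapped widely. Its log2 change was 1.04 ± 0.15 (SE), or 2.06-fold, higher in 35 of 39 pools (limma, adjusted p = 4.18e-09), with a median of 10 reads per library in Ctr and 23 in SD. Summed over pools, Fos had 431 reads in Ctr, or 1.64 CPM with an exact 95% Poisson interval from 1.49 to 1.80, and 885 reads in SD, or 3.40 CPM with an interval from 3.18 to 3.64, both covering counting error only.

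Fosb was close to the limit of detection in liver. It had a median of 1 read per library in Ctr, with 0 reads in 9 libraries, and of 4 reads in SD, with at least 1 read in each. The summed reads were 73 in Ctr, or 0.278 CPM (exact Poisson interval 0.218 to 0.349), and 172 in SD, or 0.662 CPM (0.566 to 0.768), a ratio of 2.38. On the log2 CPM scale, which pulls such low values together, the change was 1.05 ± 0.18 (SE), higher in 34 of 39 pools (limma, adjusted p = 1.03e-06). With log2(CPM + 1) it was 0.37 ± 0.070 (limma, adjusted p = 5.91e-06).

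Fosl2 ranged from 3.77 to 4.72 log2 CPM in Ctr (median 4.26) and from 4.06 to 5.23 in SD (median 4.68). It rose by 0.44 ± 0.058 (SE), or 1.36-fold, in 37 of 39 pools (limma, adjusted p = 6.13e-10). Jun ranged from 3.89 to 5.70 log2 CPM in Ctr (median 4.64) and from 4.25 to 5.97 in SD (median 5.17), and its log2 change was 0.53 ± 0.080 (SE), or 1.44-fold, higher in 37 of 39 pools (limma, adjusted p = 3.93e-08). The ranges of both genes overlapped between conditions although nearly all lines moved upward.

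Junb, at 4.79 to 5.85 log2 CPM in Ctr (median 5.46) and 4.85 to 6.01 in SD (median 5.48), had a log2 change of 0.047 with a 95% confidence interval from -0.056 to 0.15 (limma, adjusted p = 0.493) and was higher in 22 of 39 pools. Jund, at 6.04 to 6.69 in Ctr (median 6.23) and 6.01 to 6.82 in SD (median 6.29), had a log2 change of 0.049 with an interval from -0.024 to 0.12 (limma, adjusted p = 0.296). With a median of 293 reads for Junb and 517 for Jund in SD libraries, both genes were well above the counting limit in liver.

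Whether the response of a gene differed between the tissues was tested directly, with limma on the liver change minus the cortex change of each pool over 12695 genes. Of the 6 genes, 4 responded less in liver and 1 responded more, against 29.6% of all genes lower in liver and 28.0% higher. The change in liver was smaller by a log2 difference for Fos of -1.20 ± 0.15 (SE, adjusted p = 1.79e-09), for Fosb of -0.72 ± 0.19 (adjusted p = 0.00105), for Fosl2 of -1.001 ± 0.070 (adjusted p = 3.71e-16) and for Junb of -1.16 ± 0.086 (adjusted p = 2.17e-15). On the log2(CPM + 1) scale the difference of Fosb was -1.30 ± 0.093, but that scale compresses its low liver values and gives no separate support. The log2 CPM scale pulls low values together as well, so that the size of the Fosb difference is uncertain. In summed reads the Fosb ratio of SD to Ctr was 3.31 in cortex and 2.38 in liver. Junb changed more in liver than in cortex in 1 of 39 pools. Jun went the other way, with a difference of 0.58 ± 0.070 (adjusted p = 1.78e-09) and a larger change in liver in 36 of 39 pools. Jund gave a difference of -0.011 with a 95% confidence interval from -0.12 to 0.10 (adjusted p = 0.882).

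**Figure D3:**
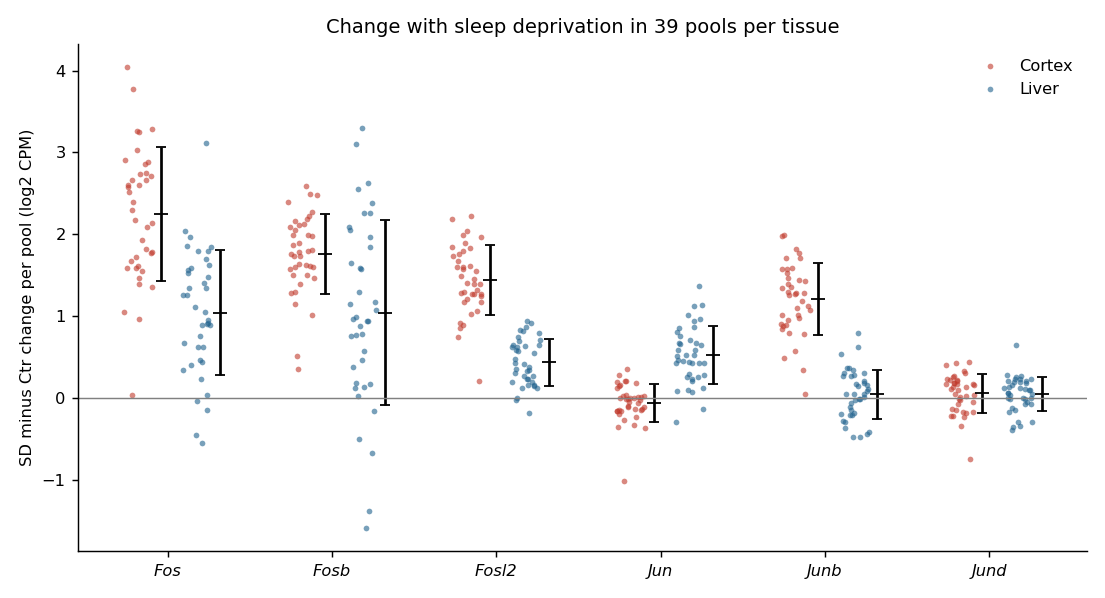
SD minus Ctr change (log2 CPM) of each of 39 pools, in cortex (red) and liver (blue), with black bars giving mean ± standard deviation and a line at no change. Fos, Fosb, Fosl2 and Junb lie higher in cortex, Jun is centered above 0 in liver only, and Jund is centered near 0 in both tissues.

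The order of the changes within a tissue was tested for 10 pairs of neighbours with two-sided paired permutation tests, adjusted over the 10 pairs. In cortex the order was Fos, Fosb, Fosl2, Junb, Jund and Jun, and each gene differed from the next. Fos exceeded Fosb by 0.49 ± 0.085 (SE) in 32 of 39 pools, and Fosb exceeded Fosl2 by 0.32 ± 0.046 in 36 of 39 pools (permutation p = 1e-05 for each, the smallest the resamples can give, adjusted p = 2.5e-05). Fosl2 exceeded Junb by 0.23 ± 0.062 in 30 of 39 pools (permutation, adjusted p = 5.67e-04). The largest step was from Junb to Jund, 1.15 ± 0.067 in 39 of 39 pools (permutation, adjusted p = 2.5e-05). Jund exceeded Jun by 0.12 ± 0.050 in 24 of 39 pools (permutation, adjusted p = 0.0345), which no longer passed without BXD79, BXD85 and BXD101 (adjusted p = 0.0607, the highest of the alternatives, which went down to 0.0301).

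In liver Fosb and Fos changed by nearly the same amount, with a difference of 0.0036 ± 0.16 (SE, permutation, adjusted p = 0.981). Fos exceeded Jun by 0.52 ± 0.11 in 31 of 39 pools (permutation, adjusted p = 2.4e-04), and by 0.22 on the log2(CPM + 1) scale (adjusted p = 0.0118). Jun and Fosl2 did not differ beyond their spread (0.085 ± 0.065, adjusted p = 0.243), nor did Jund and Junb (0.0020 ± 0.043, adjusted p = 0.981), while Fosl2 exceeded Jund by 0.39 ± 0.056 in 34 of 39 pools (permutation, adjusted p = 2.5e-05).

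The size of the response varied between pools. For Fos in cortex the standard deviation of the change over 39 pools was 0.81, whereas counting error alone, approximated from the reads of each pool, would give 0.099. The same values were 0.49 and 0.11 for Fosb, 0.42 and 0.064 for Fosl2, and 0.44 and 0.068 for Junb. In liver the approximated counting error of Fosb (1.24) exceeded its whole spread (1.13). At a median of 1 and 4 reads per library the approximation cannot tell how much of that spread was counting. The spread of Fos in liver (0.76) was not far above its counting error (0.58). For Jun and Fosl2 in liver the values were 0.36 against 0.15 and 0.29 against 0.17. Spread beyond counting error holds differences between mice and pools as well as between lines.

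Repeated pools of the parental strains, taken at the start and the end of the collection, gave a measure of the spread without a change of genotype. For Fos in cortex the DBA/2J pools changed by 1.40 and 3.27 and the C57BL/6J pools by 2.74 and 1.93. The gap between the DBA/2J pools was 1.87, beside a standard deviation of 0.81 between all pools. It came mostly from the Ctr level, which differed by 1.36. Junb behaved alike in DBA/2J, with changes of 0.34 and 1.27. For Fosb and Fosl2 the C57BL/6J pools differed by 0.036 and 0.060 in their change and the DBA/2J pools by 0.50 and 0.47. For Jun in liver the gaps were 0.13 and 0.050, beside a standard deviation of 0.36 between all pools. For Fosl2 in liver they were 0.39 and 0.38, beside a standard deviation of 0.29. A gap between 2 pools tends to be larger than the standard deviation of the same spread, so that these values cannot be ranked against each other directly. Line against pool was not tested.

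One line stood apart in cortex. The BXD89 pools gave the smallest change of all 39 for Fos (0.040), Fosb (0.36), Fosl2 (0.20) and Junb (0.051). Its Ctr pool was the highest of 39 for Fos (5.32 log2 CPM), Fosl2 (5.65) and Junb (5.85) and was exceeded for Fosb (4.58) by BXD56 alone, while its SD pool was at 5.36, 5.86, 5.90 and 4.94 for the same genes. In liver the BXD89 change of Fos was 1.34, above the mean of all pools. At the other end, BXD67 had the lowest Ctr level of Fos in cortex (2.41) and the largest change of Fos (4.04) and Fosl2 (2.22). BXD85, whose pools held fewer mice, had the largest change of Fosb (2.59) and Junb (2.00). For Jun in cortex BXD56 stood apart, with a Ctr level of 6.46 and a change of -1.01. Leaving out any single pool left the log2 change of Fos in cortex between 2.20 and 2.30 and altered no call of the 6 genes.

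The changes of Fos, Fosb, Fosl2 and Junb in cortex varied together across pools. Over 48 relations in all, tested by two-sided permutation and adjusted together, 12 passed, and 6 of these were the 6 pairs among Fos, Fosb, Fosl2 and Junb in cortex. The changes of Fos correlated with those of Fosl2 (Pearson's r = 0.83, Spearman's rho = 0.80), Fosb (r = 0.78, rho = 0.79) and Junb (r = 0.78, rho = 0.73) over 39 pools, each with an adjusted permutation p of 9.6e-05 for r and for rho, where the unadjusted p of 1e-05 is the smallest the resamples can give. Without the 2 pools farthest from the median of Fos, r was 0.76, 0.73 and 0.69. Fosb correlated with Fosl2 (r = 0.81, rho = 0.86) and Junb (r = 0.71, rho = 0.68), and Fosl2 with Junb (r = 0.60, rho = 0.55, adjusted permutation p = 2.4e-04 and 0.00156, r = 0.43 without the 2 farthest pools). Without BXD89, a choice made after seeing the data, the r of Fos was 0.79 with Fosl2, 0.72 with Fosb and 0.73 with Junb. Jun correlated with none of these 4 genes in cortex, with r between 0.021 and 0.24. The values of a pool come from the same libraries, so that depth and RNA composition are shared by all genes compared, and their part in the correlations was not tested. The share of all gene pairs that would pass was not computed, so the count of 6 pairs has no background beside it.

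**Figure D4:**
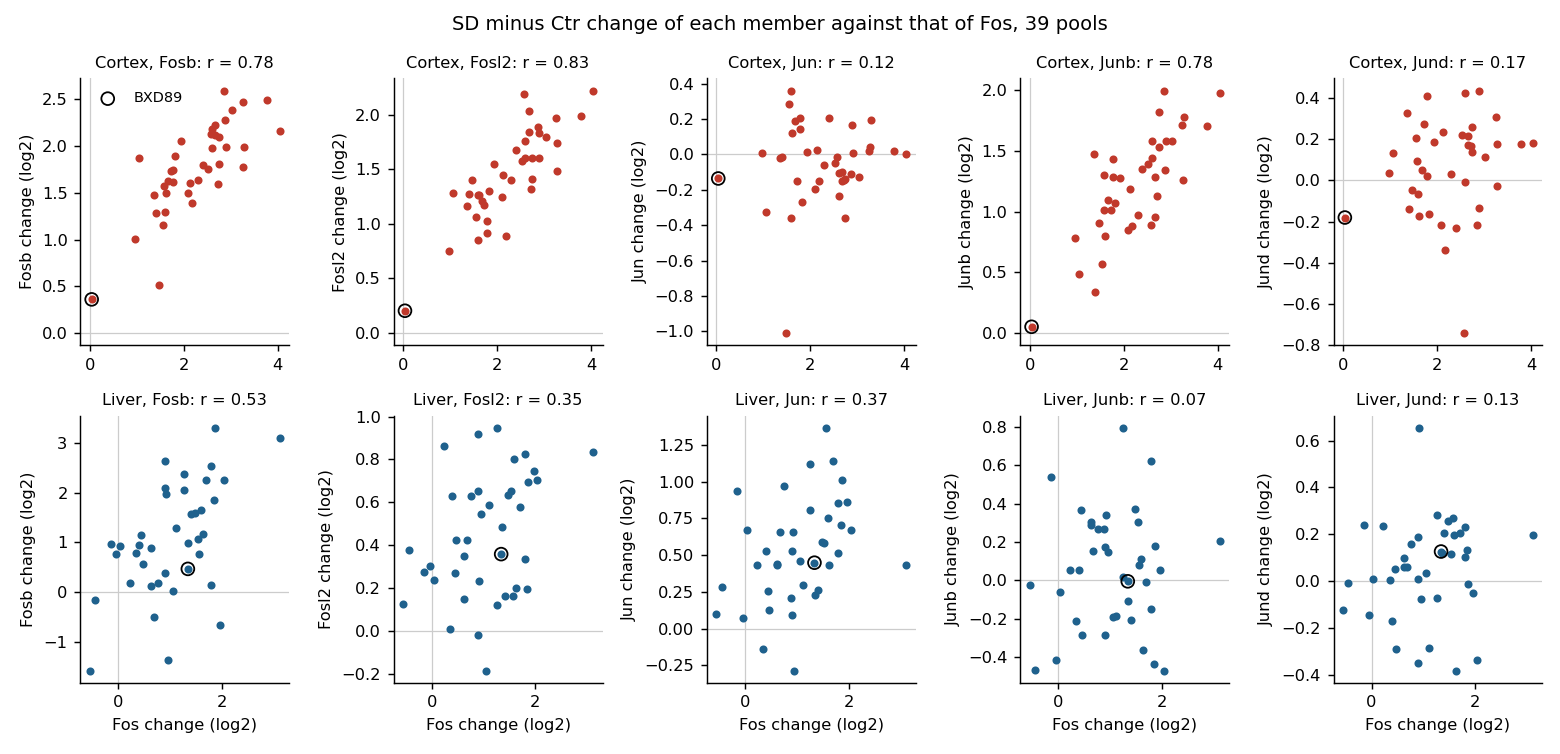
SD minus Ctr change (log2) of each other gene against that of Fos over 39 pools in cortex (upper panels, red) and liver (lower panels, blue), with Pearson's r in each panel title and BXD89 circled. In cortex Fosb, Fosl2 and Junb follow Fos (r = 0.78, 0.83 and 0.78) and BXD89 lies at the lower left, whereas Jun and Jund form no line.

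In liver 4 of 15 pairs passed, again without a share over all gene pairs to set beside this count. Fos and Fosb changed together (r = 0.53, rho = 0.48, adjusted permutation p = 0.00357 and 0.0125, r = 0.37 without the 2 farthest pools), and so did Junb and Jund, neither of which changed on average (r = 0.49, rho = 0.47, adjusted permutation p = 0.00811 and 0.0154, r = 0.58 without the 2 farthest). Jun with Jund (r = 0.42, rho = 0.45, adjusted permutation p = 0.0330 and 0.0174, r = 0.38 without the 2 farthest) and Fosl2 with Junb (r = 0.42, rho = 0.39, adjusted permutation p = 0.0313 and 0.0560, r = 0.33 without the 2 farthest) passed for r, but not without BXD79, BXD85 and BXD101 (adjusted p = 0.0963 and 0.0665), and over the alternatives their adjusted p ranged from 0.0277 to 0.0963 and from 0.0185 to 0.126. The change of a gene in cortex was not related to its change in liver for any of the 6 genes (r from -0.29 for Jund to 0.28 for Fos, 0 of 6 passed, lowest adjusted permutation p = 0.183).

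A relation between the level in Ctr and the level in SD passed the test for Jun only. Across pools the Ctr and SD levels of Jun correlated in cortex (r = 0.45, rho = 0.60, adjusted permutation p = 0.0202 and 7.2e-04, r = 0.65 without the 2 farthest pools) and in liver (r = 0.51, rho = 0.56, adjusted permutation p = 0.00588 and 0.00156, r = 0.49 without the 2 farthest). Of the other 10 such relations none passed, with r from -0.27 for Fos in cortex to 0.38 for Fosl2 in liver. The pools of a line thus tended to share their Jun level across conditions in both tissues. Fosl2 in liver passed in the 33 BXD/RwwJ lines alone (r = 0.44, adjusted permutation p = 0.0379). Whether the relations differ between genes was not tested.

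The spread between pools was compared between conditions by permuting Ctr and SD within pools, adjusted over 12 tests. In cortex the standard deviation of the Fos level was 0.64 in Ctr and 0.36 in SD, a log2 ratio of -0.84 (permutation p = 8.6e-04, adjusted p = 0.0103). Without BXD89 the log2 ratio was -0.73 (adjusted p = 0.0220), and in the 33 BXD/RwwJ lines alone it was -0.78 and did not pass (adjusted p = 0.0560, with a lowest of 0.0078 over the alternatives). The other 11 ratios did not pass, with log2 values from -0.34 for Fosb to 0.41 for Jund, both in liver.

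The 4 BXD/TyJ lines gave values of the same direction for the genes that rose. The labels of BXD29 and BXD29t share a line number, and both were counted here as separate lines. In cortex their mean changes were 2.29 ± 0.57 (s.d., n = 4) for Fos, 1.66 ± 0.18 for Fosb, 1.32 ± 0.21 for Fosl2 and 1.18 ± 0.18 for Junb, each higher in 4 of 4 lines, and 0.074 ± 0.20 for Jun. In liver Fos (1.54 ± 0.67), Fosl2 (0.99 ± 0.23) and Jun (0.67 ± 0.50) were higher in 4 of 4 lines and Fosb in 3 of 4. The Fosl2 changes in liver, from 0.80 to 1.31, lay beside a range of -0.19 to 0.95 over the 39 other pools, with BXD29 (0.96) and BXD32 (1.31) above that range. The F1 pools changed by 0.63 and 0.95, and DB-F1 (DBA/2J x C57/BL/J) held the largest liver change of Fosl2 and of Junb (0.79) among the 39. These sets were not tested against each other.

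Genes whose change across the 39 pools was most like that of each gene were named by the highest Pearson's r, among 13737 genes in cortex and 12866 in liver with a mean of at least 0 log2 CPM. For Fos in cortex they were Egr2, an immediate early zinc finger factor (r = 0.92), Dusp6, a phosphatase of ERK kinases (r = 0.92), and Sik1, a salt-inducible kinase (r = 0.88). For Fosb they were Ptgs2, the inducible cyclooxygenase (r = 0.84), Kdm6b, a histone demethylase (r = 0.82), and Trib1, a pseudokinase (r = 0.80). For Fosl2 they were Egr2 (r = 0.84), Homer1, a postsynaptic scaffold (r = 0.83), and Egr1 (r = 0.82). For Junb they were Dusp1, a phosphatase of mitogen-activated protein kinases (r = 0.86), the nuclear receptor Nr4a1 (r = 0.83) and the immediate early gene Ier2 (r = 0.82).

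Among the genes most like Jun in cortex were Klhl2 (r = 0.73) and Dgcr2 (r = 0.72). For Jund they were Scand1 (r = 0.93), Hnrnpa0, an RNA-binding protein (r = 0.91), and Prr7 (r = 0.91). The mean log2 changes of these 5 genes lay between -0.11 and 0.087. In liver the closest genes were Itgb2, an integrin chain of white blood cells, for Fos (r = 0.63), Ly9 for Fosb (r = 0.66), Zbtb16 for Fosl2 (r = 0.69), Atf3, a stress-induced partner of Jun, for Jun (r = 0.64), Flcn for Junb (r = 0.80) and Pgls for Jund (r = 0.86). Zbtb16, a zinc finger factor, itself changed by a mean of 2.08 in liver. Next in liver were Ints5 and Coro2a for Fos, Cd68 and Pld4 for Fosb, Cdt1 and Acer2 for Fosl2, Ramp1 and Gdf15 for Jun, Plekhf1 and Gpank1 for Junb, and Akt1s1 and Nr2f6 for Jund, with r from 0.57 to 0.82. Cd68, a macrophage marker, and Ly9, a leukocyte surface protein, changed by -0.047 and -0.076 on average.

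The next list held other proteins that pair with Fos or Jun. Of its 8 genes 5 were listed in cortex, where 2 rose and 1 fell, and 7 in liver, where 1 rose and 1 fell. Fosl1, the remaining Fos family gene, was listed in neither tissue. Jdp2, a repressor that pairs with Jun, rose in cortex from 5.39 to 5.85 log2 CPM, by 0.46 ± 0.032 (SE) in 39 of 39 pools (limma, adjusted p = 1.88e-22), and in liver from 1.62 to 2.43, by 0.81 ± 0.11 in 36 of 39 pools (limma, adjusted p = 5.24e-10), a larger change in liver by 0.35 ± 0.093 (limma, adjusted p = 0.0013). Atf3 rose in cortex by 0.61 ± 0.11 in 31 of 39 pools at a median of 14 and 21 reads (limma, adjusted p = 2.11e-06), and its change in liver was 0.18 ± 0.13 (adjusted p = 0.255). Batf3 fell in both tissues, by 0.32 ± 0.15 in cortex (limma, adjusted p = 0.0487) and by 0.52 ± 0.17 in liver (limma, adjusted p = 0.0099). Atf2, the best expressed of these genes at 7.18 log2 CPM in cortex and 6.89 in liver, had changes of -0.0055 and -0.022, Atf7 of 0.024 and -0.11, and Batf and Batf2, listed in liver only, of 0.10 and -0.19, none of which passed.

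Of 10 factors that act on the promoters of these genes, 8 rose and 0 fell in cortex, and 3 rose and 2 fell in liver. Crem, a cAMP-responsive factor with an inducible repressor isoform, rose in cortex by 0.86 ± 0.040 (SE) in 38 of 39 pools (limma, adjusted p = 2.93e-33) and in liver by 0.22 ± 0.036 (limma, adjusted p = 1.69e-07). Srf, mentioned here because it binds the CArG box, had log2 changes of 0.36 in cortex and 0.18 in liver. Of the kinases upstream, 2 of 13 rose and 7 fell in cortex, and 1 of 12 rose and 6 fell in liver, none by 0.5 or more. The median changes of the factors were 0.13 in cortex and 0.053 in liver and those of the kinases -0.053 and -0.083, against -0.0097 and -0.0015 for all genes.

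Among textbook targets of AP-1, 12 were listed in cortex, of which 8 rose and 3 fell (median log2 change 0.16), and 11 in liver, of which 2 rose and 3 fell (median 0.028). Timp1, an inhibitor of matrix metalloproteinases, rose in cortex by 1.77 ± 0.20 (SE) in 36 of 39 pools, at a median of 6 reads in Ctr and 21 in SD (limma, adjusted p = 1.03e-12). Plaur, the urokinase receptor, rose in cortex by 0.72 ± 0.087 in 36 of 39 pools (limma, adjusted p = 1.23e-11). Ccnd1, the cell cycle regulator cyclin D1, fell in liver by 0.62 ± 0.15 in 36 of 39 pools (limma, adjusted p = 5.26e-04). These 3 genes were the targets with a change of at least 0.5 that passed the test. The shares of rises and falls in these lists stand beside the 33.0% and 35.4% of all genes in cortex and the 21.5% and 22.6% in liver.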

How the data were processed

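Values were log2 CPM as the authors deposited them, in a table for each tissue and condition. Per the study's methods, RNA was pooled per line and condition, stranded mRNA libraries were sequenced, reads passed FastQC, STAR placed them on mm9, and htseq-count (HTSeq) assigned them to genes. The authors then removed genes with low counts and applied edgeR's TMM normalization. Undoing the logarithm returned whole numbers of reads for 100% of values (tolerance 0.02 reads), and these reads served for depth, intervals and voom. Cortex libraries of the 39 pools held a median of 22170272 (Ctr) and 22713295 (SD) reads and liver libraries of 6752508 and 6563242, so that low genes were less precise in liver. All 172 libraries could be assigned, and 0 columns were without a sample.

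SD and Ctr pools were compared with limma 3.58.1 in R 4.3.3 (lmFit, eBayes with a variance trend), without a block, and Benjamini-Hochberg adjustment covered every gene of a tissue. The difference between tissues was fitted with limma on the difference of the changes of each pool. Permutation tests used 100000 resamples (numpy 2.4.6). The code was tested on simulated data. SD and Ctr pools of a line resembled each other after removal of the mean of each gene, with correlations of at least 0.299 in cortex and 0.169 in liver, and the line was therefore used as a block in an alternative. Other alternatives were voom, median-centred and quantile-normalized libraries, a fit without a trend, a filter at a mean log2 CPM of 0, log2(CPM + 1), other sets of pools, and leaving out each pool.

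Besides the 6 genes, those of the lists were named where the adjusted p was under 0.05 and the absolute log2 change at least 0.5, with the partners named whatever their change, Srf for its motif, and the 3 genes most alike in change per gene and tissue, of which 1 is not reported here. Genes and lists were chosen with earlier results of these data known. Sequences, positions and exon lengths came from mm9 (NCBIM37) with the GENCODE vM1 annotation. The study's phenotypes, metabolites and genotypes were not used here.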

Additional observations from a re-analysis of the deposited data

Results flagged for a closer look

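The change with SD differed between the tissues for 5 of the 6 genes, by limma's test of the difference itself. Such differences were common, since 28.0% of 12695 genes passed as higher in liver and 29.6% as lower. The liver minus cortex difference was -1.20 for Fos, -0.72 for Fosb, -1.001 for Fosl2 and -1.16 for Junb, and 0.58 for Jun, which was the only one of the 6 with a larger response in liver that passed the test.

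In the 4 BXD/TyJ lines, 3 of 24 sets of 4 values held a pool far from the others, judged by the gap to its neighbour over the whole range (Dixon's test), where chance gives about 1 in 20. The Ctr level of Fosb in cortex was 3.61 log2 CPM in BXD29t, the Ctr level of Jund in cortex was 7.05 in BXD05, and the SD level of Fos in liver was 1.55 in BXD29. Beside the 39 other pools, the Fosb value lay inside the Ctr range (2.96 to 4.70). The Fos value lay inside the SD range (0.61 to 2.70, median 1.72), and the Jund value was above the highest Ctr pool (6.91).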

How the results depend on the processing

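The rises of Fos, Fosb, Fosl2 and Junb in cortex and of Fos, Fosb, Fosl2 and Jun in liver kept their direction and passed the test under every alternative run, and Jun and Jund in cortex and Junb and Jund in liver passed under none. The line as a replicate block gave adjusted p-values of 7.23e-22 for Fos in cortex and 2.66e-11 for Jun in liver and changed no call of the 6 genes. The tissue difference of Jund, -0.011 as reported and not past the threshold, changed sign under quantile normalization (0.0067), with all 43 pools (0.0035) and without BXD79, BXD85 and BXD101 (0.016), and ranged from -0.037 to 0.0029 when single pools were left out. The liver change of Fosb minus that of Fos, 0.0036, became -0.079 in the 33 BXD/RwwJ lines and -0.36 on the log2(CPM + 1) scale, which compresses the low values of Fosb. On that scale the liver change of Fosb was 0.37 against 1.05, its tissue difference -1.30 against -0.72 and the liver change of Fos minus that of Jun 0.22 against 0.52, and all of these passed. Jund minus Jun in cortex (0.12) was 0.11 and no longer passed without BXD79, BXD85 and BXD101. Without BXD89, an alternative added after seeing the data, Jund minus Junb in liver became -0.0014, the log2 ratio of standard deviations in cortex became 0.070 for Fosb and 0.020 for Junb, and in cortex the r of change became -0.0069 for Fosl2 with Jun and -0.0027 for Fosl2 with Jund and the r between Ctr and SD levels of Fosl2 became 0.12. The standard deviation ratios in liver turned to 0.071 for Fos and 0.28 for Fosb on the log2(CPM + 1) scale. The r between Ctr and SD levels of Fosb turned to -0.0085 in cortex in the 33 lines and to 0.057 in liver without BXD79, BXD85 and BXD101, and there the r of Fosl2 with Jund in liver turned to -0.064. None of the values that changed sign passed the test as reported, and of their alternatives Fosb minus Fos on the log2(CPM + 1) scale did (adjusted permutation p = 1.2e-04). The causes were not tested. Depth limits Fosb in liver most, with a median of 1 read in Ctr libraries.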
